A study of Homo sapiens with 12 samples.

Results

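The response of MDA-MB-231 cells to the plus2 isomiR of miR-183-5p was read from 6 of the 12 arrays of the series, 3 of cells given the plus2 mimic and 3 of control cells. MDA-MB-231 is a widely used cell line from a human breast cancer that lacks hormone receptors and HER2 amplification. In the plus2 group the cells received a synthetic mimic in which both ends of the microRNA lie 2 nucleotides further along its precursor than in the reference form. In the control group they received a commercial negative control oligonucleotide. Every group was transfected with a cationic lipid reagent at a final concentration of 50 nM for 48 h, so no group stands for untransfected cells, and each array was labelled from 100 ng of total RNA. The other 6 arrays held the archetype mimic, which has the reference ends, and the minus2 mimic, in which both ends lie 2 nucleotides the other way. They served for direct tests of where plus2 differs, and they also entered the signal filter, the principal components and the shared estimate of the spread behind every p-value. The model is transient delivery of an oligonucleotide from outside to cells of 1 line. The arrays were taken by their titles, and 14940 of 22411 genes, those with a mean log2 signal above 4.54, were tested. The labels do not state whether the replicates of a group were grown as separate cultures. A p-value here therefore refers to the spread between these arrays, part of which may be technical.

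A microRNA guides an Argonaute protein to messenger RNAs that pair with its seed, the bases near its 5′ end, and the bound messages are translated less and decay sooner. IsomiRs are forms of the same microRNA cut at other positions, and a shift of the 5′ end gives the molecule another seed. MiR-183-5p comes from a cluster of microRNA genes known for its part in sensory cells and is often abundant in tumours of epithelial origin.

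The sequences of the mimics show how far the seed moved. They are written 5′ to 3′, with the seed, bases 2 to 8, in capitals. The isomiR sequences are those the labels give, written as RNA, and the archetype is the mature human entry of RefSeq (GRCh38.p14), encoded at chr7:129774967-129774988 on the minus strand.
plus2: uGGCACUGguagaauucacugu
archetype: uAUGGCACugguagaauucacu
minus2: uGUAUGGCacugguagaauuca
Each mimic is 22 nt long, and plus2 shares 20 nt with the archetype. The plus2 seed covers bases 4 to 10 of the archetype, so 5 of its bases also lie in the archetype seed. None of 2545 mature human microRNAs in the RefSeq table carried the plus2 seed at bases 2 to 8, and the archetype seed was found in its own entry only.

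The plus2 arrays lay at 19.5 to 21.6 on principal component 1 of the tested genes, against -6.52 to -6.85 for control, 2.08 to 2.17 for the archetype and -15.5 to -16.4 for minus2. Plus2 replicate 3 stood apart from the other 2 arrays of its group. Its median absolute difference from replicates 1 and 2 was 0.104 and 0.103 log2 units, whereas those 2 differed by 0.0814, and the control arrays differed by 0.0724 to 0.0779. Among array weights estimated by limma for all 12 arrays, it had the lowest, 0.377, against 0.800 to 1.64 for the others. Without it, 4897 genes were called between plus2 and control in place of 5020, 4356 of them in the same direction in both fits and none in opposite directions. Of the 721 genes called at a change of at least 1.5-fold, 718 were called the same way without it. For the gene groups below, the number of rises or falls without an array stands beside the count where leaving that array out moved it by more than 1.5-fold and either number was at least 5, and smaller shifts are mostly not given.

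**Figure D1:**
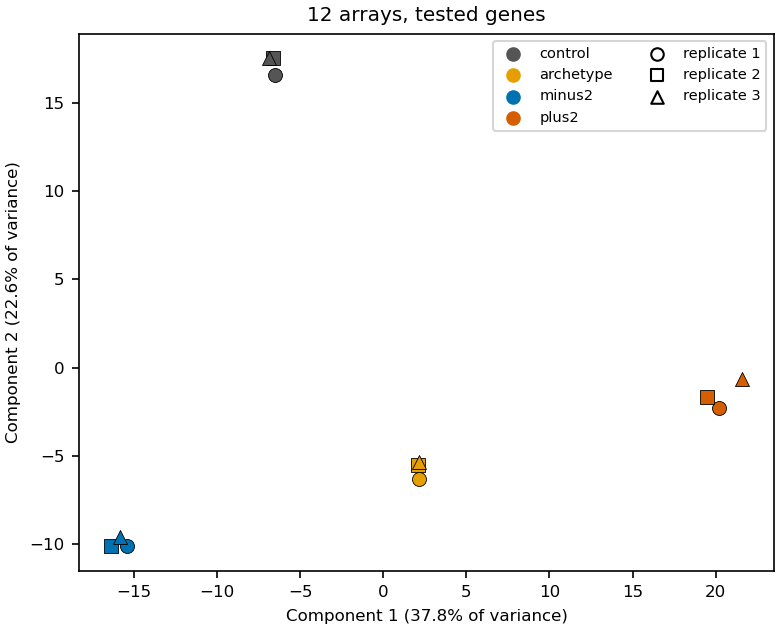
Component 1 is plotted against component 2 for the tested genes, 1 point per array, with colour for the group and shape for the replicate. The 3 plus2 arrays lie at the right between 19.5 and 21.6, and plus2 replicate 3 lies furthest from its group.

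The arrays carried the markers of the line. Vimentin, VIM, lay between 13.79 and 13.81 in control and between 13.53 and 13.63 with plus2, and the hyaluronan receptor CD44 between 14.46 and 14.51 and between 14.03 and 14.18. The oestrogen receptor gene ESR1, the progesterone receptor gene PGR, the leukocyte gene PTPRC and the fibroblast gene DCN lay below the signal threshold or passed it in single arrays only, with highest values of 4.21, 3.86, 4.22 and 4.64. Not all markers of other cell types were this low. KRT18 and EPCAM, listed here as luminal markers, were bright. Over the 2 groups KRT18 lay between 12.4 and 12.7 and EPCAM between 8.5 and 8.7. The fibroblast gene COL1A1 lay between 5.34 and 5.41 in control and between 5.38 and 5.59 with plus2. The T cell gene CD3E lay between 4.41 and 4.82 and between 4.61 and 4.68, in the same order. MIR183 itself lay between 3.73 and 3.82 in these arrays, below the threshold. Of 12 tested markers of the line, 9 fell and 2 rose with plus2, beside 16.2% falling and 17.4% rising over all tested genes. Among them were the caveolar coat gene CAV1, the urokinase receptor gene PLAUR, the chromatin protein gene HMGA2 and the collagen crosslinking gene LOX. EGFR, another marker of the line, went up, from between 11.5 and 11.6 in control to between 11.8 and 11.9 with plus2. The list's median against control was -0.368 with plus2, -0.103 with the archetype and -0.466 with minus2. Over the 12 markers on the array the mean log2 signal per array was 11.81 to 11.84 in control and 11.34 with plus2. The mean over 15 luminal markers was 6.99 to 7.04 in control and 7.06 to 7.13 with plus2, over 12 white blood cell markers 6.10 to 6.19 and 5.96 to 6.05, and over 9 fibroblast markers 4.40 to 4.49 and 4.50 to 4.56. Of 9 tested luminal markers 5 rose and 0 fell (3 and 0 without plus2 replicate 3, control replicate 2 or control replicate 3), of 8 white blood cell markers 1 rose and 3 fell, and of 3 fibroblast markers 1 rose. Their part in the results below was not tested. In bulk RNA, fewer cells of a type and less RNA per cell cannot be told apart.

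Of 14940 genes, 5020 (33.6%) were called between plus2 and control by limma with Benjamini-Hochberg adjustment at 0.05, and 2605 (17.4%) rose and 2415 (16.2%) fell. Most changes were small, since 721 genes (4.83%) were called at 1.5-fold or more, of which 344 (2.30%) rose and 377 (2.52%) fell. The 3 plus2 arrays lay entirely on 1 side of the 3 control arrays for 6390 genes (42.8%), above them for 3311 (22.2%) and below for 3079 (20.6%). The median change over all tested genes was 0.005 log2 units. In direct tests, 4316 genes (28.9%) differed between plus2 and the archetype and 5787 (38.7%) between plus2 and minus2. For comparison, 3669 genes (24.6%) were called between the archetype and control and 4388 (29.4%) between minus2 and control. Changes below are differences in log2 signal between plus2 and control with their SE, from 3 arrays a group, and an adjusted p is limma's.

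The 20 largest falls included VAMP3, MSN, MICAL2, CPNE3 and CD164. VAMP3, a vesicle SNARE of recycling endosomes, read 13.12, 13.15 and 13.02 in the control arrays and 10.69, 10.82 and 10.72 with plus2. The groups were more than 2 log2 units apart, and the change of -2.35 ± 0.05 (adjusted p = 1.67e-10) was the largest fall named. Moesin, MSN, which ties actin filaments to the plasma membrane, read 15.35, 15.26 and 15.32 in control and 13.11, 13.07 and 13.12 with plus2, a change of -2.21 ± 0.04 (adjusted p = 1.22e-10). MICAL2, an enzyme that oxidises and disassembles actin filaments, read 12.90, 12.94 and 12.91 and then 11.24, 11.23 and 11.19. The arrays within each group differed by less than 0.1, far less than the change of -1.70 ± 0.04. CPNE3, a calcium-dependent phospholipid-binding protein, fell by 1.70 and CD164, a sialomucin of the cell surface and lysosomes, by 1.57.

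HBEGF, ITGB1, EMP1, MICB and TMBIM6 were also among them. HBEGF, a ligand of the EGF receptor, read 11.22, 11.21 and 11.15 in control and 9.68, 9.46 and 9.49 with plus2, a change of -1.65 ± 0.06 (adjusted p = 8.61e-09). ITGB1, the integrin beta-1 subunit, read 15.74, 15.68 and 15.69 and then 14.09, 14.14 and 14.16. All plus2 values of both genes lay below all control values, as the rule that chose these genes required. EMP1, a tetraspan membrane protein, changed by -1.59 ± 0.08, and MICB, a stress ligand that natural killer cells recognise, by -1.44 ± 0.08. A dimmer transcript cluster of ITGB1, with a mean signal of 5.72, changed by only -0.007 (adjusted p = 0.958), so its clusters disagreed. TMBIM6, an endoplasmic reticulum protein that limits cell death, fell by 1.71 on its bright cluster. Another cluster of it changed by -0.102 (adjusted p = 0.605), but at 3.46 it lay below the signal threshold and cannot be set against the bright one.

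The remaining large falls covered genes of varied roles. SKP2, the F-box protein that marks the cell-cycle inhibitor CDKN1B for destruction, read 11.34, 11.32 and 11.28 in control and 9.87, 9.96 and 9.53 with plus2. Replicate 3 was the lowest plus2 array, and the change was -1.53 ± 0.10 (adjusted p = 3.89e-07). MAVS, the mitochondrial adaptor through which cytosolic RNA sensors signal, read 9.57, 9.47 and 9.48 and then 8.02, 8.05 and 8.09, a change of -1.46 ± 0.04. RNF4, a ubiquitin ligase for SUMO-modified proteins, read 11.23, 11.22 and 11.25 and then 9.85, 9.81 and 9.66. AARS1, the alanyl-tRNA synthetase, changed by -1.46 ± 0.04, and MTRR, which reactivates methionine synthase, by -1.47 ± 0.06. EPDR1, SZRD1 and GINM1 completed the 20 largest falls together with EI24 and the cyclin gene CCNK, and adjusted p was at most 3.89e-07 among the 20.

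The 20 largest rises included TGFB2, DKK1, CXCL8, EDN1 and CPA4, which encode secreted proteins. TGFB2, a TGF-beta ligand, read 11.03, 11.09 and 10.95 in control and 13.16, 13.29 and 13.25 with plus2, a change of 2.21 ± 0.05 (adjusted p = 2.63e-10). DKK1, a secreted Wnt antagonist, read 10.29, 10.47 and 10.39 and then 12.51, 12.71 and 12.51. CXCL8, the neutrophil chemokine interleukin-8, read 9.67, 9.65 and 9.67 and then 11.76, 11.54 and 11.75, a change of 2.02 ± 0.06. In each of these 3 genes the lowest plus2 array lay more than 1.5 log2 units above the highest control array. EDN1, the vasoconstrictor peptide endothelin-1, read 5.80, 5.52 and 5.81 and then 7.84, 7.61 and 7.27. CPA4, a carboxypeptidase, varied widely, with 11.26, 11.16 and 11.85 with plus2 against 9.33, 9.02 and 9.33 in control. Its change was 2.20 ± 0.17, and replicate 3 was the highest array.

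The remaining rises covered genes of varied roles, among them the tight junction gene CLDN1, whose values are given below with the junction genes. The matrix glycoprotein gene THBS1 read 13.41, 13.53 and 13.35 in control and 14.98, 15.10 and 14.71 with plus2, and the fibulin gene EFEMP1 rose by 1.61 ± 0.07. ADAMTS15, a secreted metalloprotease, rose by 1.53 ± 0.09, and CAVIN2, a coat protein of caveolae, by 1.53 ± 0.09. PARD6B, a component of the epithelial polarity complex, read 10.52, 10.45 and 10.45 and then 11.66, 11.78 and 12.02. CITED2, a transcriptional coregulator that restrains the hypoxia response, rose by 1.45 ± 0.07, the neutral amino acid transporter gene SLC7A5 by 1.34 ± 0.08, and NUAK1, a kinase related to AMPK, by 1.33 ± 0.09. SLC27A2, which activates very long-chain fatty acids, rose by 1.32 ± 0.10 from control values between 4.67 and 4.81, close to the signal threshold. Adjusted p was at most 2.75e-06 among the 20 largest rises, which also held ACTBL2, PLEKHS1, ANKRD1, CRY1 and ZC3H6. ACTBL2 is close in sequence to the beta-actin gene, and signals from such relatives may not be separable.

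**Figure D2:**
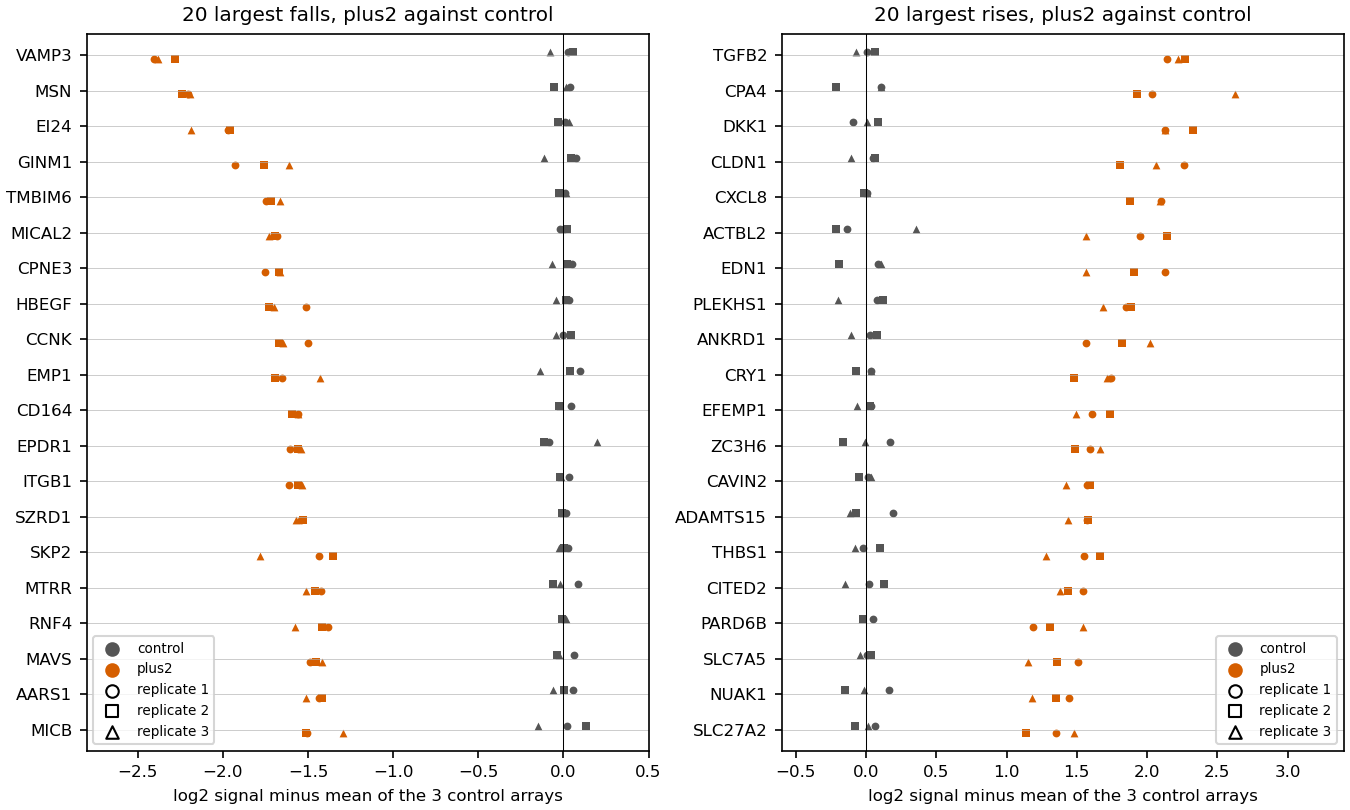
Each row is a gene, and each point is the log2 signal of 1 array minus the mean of the 3 control arrays, with colour for the group and shape for the replicate. The 40 genes were chosen to have all plus2 arrays on 1 side of the control arrays, so that separation is not a finding. The changes reach down to VAMP3 at -2.35 on the left and up to TGFB2 at 2.21 on the right.

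Direct tests showed which genes set plus2 apart. At an adjusted p under 0.05 in each of 3 contrasts, 2034 genes (13.6%) differed the same way from control, archetype and minus2, of which 896 were higher and 1138 lower with plus2. CCNK, which encodes cyclin K, the partner of the transcriptional kinases CDK12 and CDK13, read 10.17, 10.22 and 10.13 in control and 8.67, 8.50 and 8.52 with plus2. It was lower with plus2 than with the archetype by 1.71 ± 0.05 and than with minus2 by 1.84 ± 0.05 (adjusted p = 2.52e-09 and 4.49e-10). Against control, the archetype changed it by 0.10 and minus2 by 0.23. SZRD1 read 9.67, 9.65 and 9.65 in control and 8.12, 8.13 and 8.09 with plus2, and was 2.83-fold lower than with the archetype and 2.75-fold lower than with minus2. RNF4 was 2.82-fold lower than with each of these mimics.

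VAMP3 was lower with plus2 than with the archetype by 1.89 ± 0.05 and than with minus2 by 2.61 ± 0.05. MSN was lower by 1.38 and 1.71, MAVS by 1.31 and 1.64, and TMBIM6 by 1.11 and 1.59, in the same order. MLEC, a lectin of the endoplasmic reticulum that binds newly made glycoproteins, read 11.49, 11.47 and 11.44 in control and 10.14, 10.24 and 10.10 with plus2. It was lower than with the archetype by 1.33 ± 0.04 and than with minus2 by 1.81 ± 0.04. GRK2, a kinase that desensitises G protein-coupled receptors, was lower by 1.16 ± 0.08 and 1.34 ± 0.08. RAP1B, a small GTPase that switches on integrins, was lower by 1.09 ± 0.04 and 1.17 ± 0.04. Its arrays read 11.55, 11.57 and 11.54 in control and 10.29, 10.36 and 10.34 with plus2, with no overlap.

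On the higher side, CXCL8 stood above the archetype by 1.71 ± 0.06 and above minus2 by 3.96 ± 0.06 (adjusted p = 1.16e-08 and 1.06e-11). NEDD9, a scaffold of focal adhesions, read 6.32, 6.34 and 6.42 in control and 7.62, 7.48 and 7.66 with plus2, above the archetype by 0.89 ± 0.05 and minus2 by 0.99 ± 0.05. DNM3, a dynamin that pinches off membrane vesicles, rose from 6.02 ± 0.09 (SD, n = 3) to 7.28 ± 0.08. In both genes the control and plus2 arrays were more than 1 log2 unit apart. CAVIN2 exceeded the archetype by 0.99 ± 0.09 and minus2 by 1.37 ± 0.09, and PLEKHS1 by 1.21 ± 0.08 and 1.33 ± 0.08. ZC3H6, LONRF2, LBH and TCP11L2 also belonged to the 10 genes most raised above all other groups. TCP11L2 had a wide spread, with 8.73, 8.45 and 9.20 with plus2 against 7.65 ± 0.18 (SD, n = 3) in control.

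**Figure D3:**
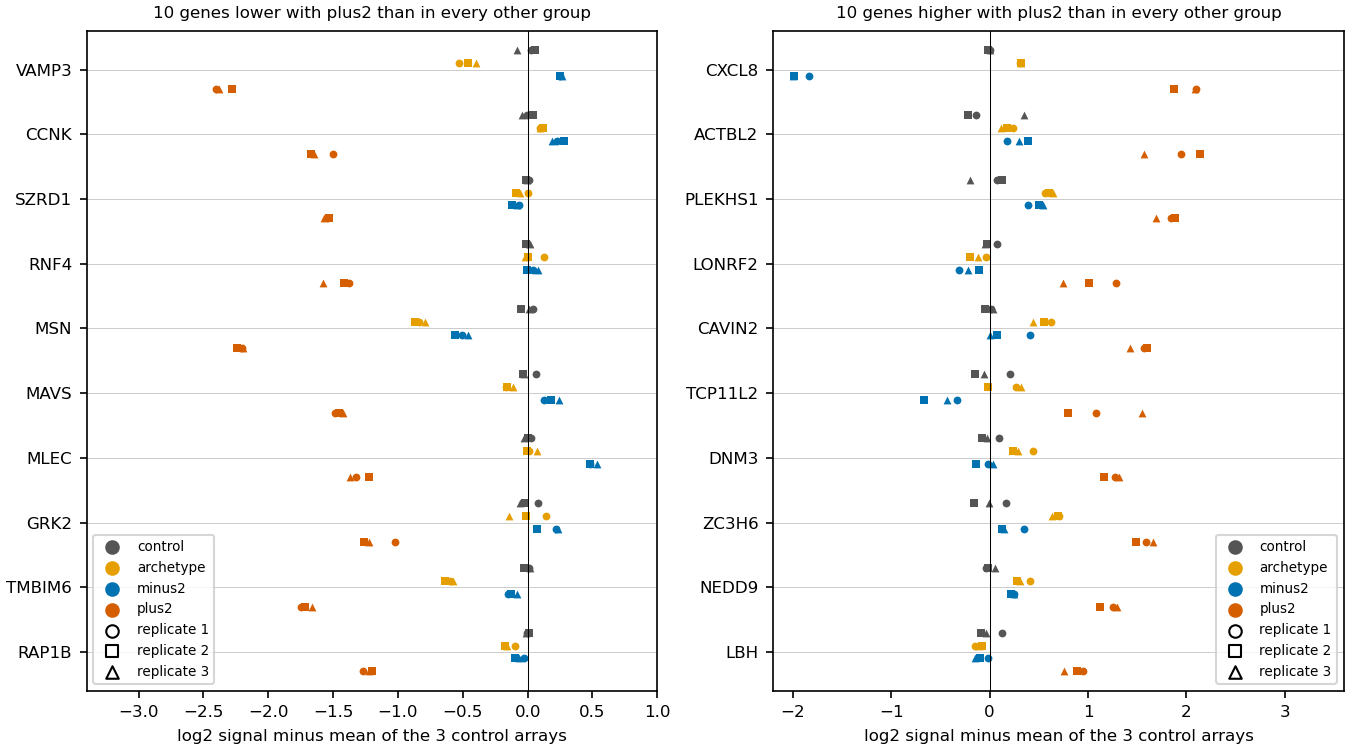
Each row is a gene chosen by the smallest of its 3 differences from the other groups, and each point is the log2 signal of 1 array minus the control mean, for all 4 groups. Each gene was chosen as called in the same direction against all 3 other groups, so the separation of plus2 largely follows from the choice. The plus2 points lie below every other array for the 10 genes on the left, such as CCNK with a change of -1.61. They lie above every other array for the 10 on the right, such as NEDD9 with 1.23.

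Gene groups were counted against the shares of all tested genes, 17.4% rising and 16.2% falling. The proteins that move and fuse vesicles were mixed. Of 41 tested SNAREs and fusion factors, 13 (31.7%) rose and 6 (14.6%) fell with plus2. VAMP7, a SNARE of lysosomes and late endosomes, read 9.71, 9.84 and 9.63 in control and 10.63, 10.82 and 10.86 with plus2, and STX12, a syntaxin of early endosomes, rose by 0.99 ± 0.07, while STX10 and STX1A fell by 0.52 and 0.50. VAMP3 thus fell alone among members that moved by at least 1.5-fold, as the other 3 rose. Of 40 Rab GTPases, which mark membrane compartments, 14 rose and 10 fell. RAB35, which directs recycling to the plasma membrane, read 9.07, 8.96 and 8.98 and then 8.38, 8.07 and 7.78, RAB38 fell by 0.81 and RAB12 by 0.78, while RAB7A of late endosomes rose by 0.49 ± 0.04. Of 39 coat and adaptor genes, 13 rose, led by the COPI subunit COPG2 at 0.78 ± 0.06, and 5 fell, among them the clathrin adaptor genes AP3M1 and AP2S1 and the GTPase gene ARF3.

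In genes of cell adhesion and the actin machinery falls outnumbered rises. Of 32 tested integrin and focal adhesion genes, 16 (50.0%) fell and 7 (21.9%) rose, with a median change of -0.204 against 0.005 for all genes. TLN1, the talin that couples integrins to actin, read 11.85, 11.73 and 11.73 in control and 10.88, 10.78 and 10.89 with plus2. ITGA5, the fibronectin receptor subunit that pairs with ITGB1, read 12.80, 12.74 and 12.83 and then 11.67, 11.63 and 11.88. TLN2, a relative of TLN1, rose instead, by 0.73 ± 0.04. TLN1 was lower than with the archetype by 0.84 ± 0.06 and than with minus2 by 1.00 ± 0.06, and 12 members were lower and 7 higher than with the archetype, 14 and 8 against minus2. Over all 14940 genes, 2376 (15.9%) were lower and 1940 higher than with the archetype, and 20.9% were lower and 17.8% higher than with minus2. The array medians of the list were -0.247, -0.262 and -0.118 with plus2, highest in replicate 3.

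Within the actin machinery, 16 of 41 members fell and 9 rose (5 without control replicate 3). WASF2, which activates branching of actin filaments at the cell edge, fell from 11.97 ± 0.03 (SD, n = 3) in control to 10.97 ± 0.05 with plus2. ARPC4, a subunit of the branching complex itself, read 8.40, 8.33 and 8.43 and then 7.42, 7.66 and 7.66, and the abundant actin gene ACTG1 fell by 0.40 ± 0.05. Among 16 linkers of actin and membrane, 4 rose and 4 fell, with the spectrin genes SPTAN1 (0.92 ± 0.06) and SPTBN1 (0.63 ± 0.04) rising while MSN and the actin-binding peptide gene TMSB4X fell.

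Genes that carry growth factor signals to ERK changed in both directions. Of 17 EGF receptor family genes, ligands and adaptors, 7 (41.2%) rose and 6 (35.3%) fell. The receptor gene EGFR was higher with plus2, between 11.8 and 11.9, than in control, between 11.5 and 11.6. The adaptors that carry the signal from the receptor to Ras fell beside HBEGF. SHC1 read 10.67, 10.69 and 10.67 in control and 10.13, 10.01 and 10.10 with plus2, and GRB2 read 9.88, 9.92 and 9.88 and then 9.45, 9.23 and 9.26. Both were lower with plus2 than with the archetype (by 0.56 and 0.47) and than with minus2 (by 0.88 and 1.00). EGF rose by 0.43 ± 0.04 and the receptor inhibitor gene LRIG1 by 0.48 ± 0.05. Among 36 feedback and immediate-early genes of the ERK pathway, 14 (38.9%) fell and 3 (8.33%) rose. FOSL1, an AP-1 subunit, read 10.10, 9.95 and 10.03 and then 8.70, 8.49 and 8.63, ETV4 fell by 0.98 ± 0.07, the phosphatase gene DUSP5 by 0.80 ± 0.09 and the feedback inhibitor gene SPRY4 by 0.55 ± 0.09. EGR1, an immediate-early transcription factor, went the other way and read 6.20, 6.05 and 6.01 and then 7.13, 6.85 and 6.73.

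The YAP and TAZ list, which holds these coactivators of transcription, their regulators and their targets, gave 16 rises (47.1%) and 8 falls (23.5%) of 34, and 10 of the rises were at least 1.5-fold. Besides TGFB2 and ANKRD1, RBMS3 read 7.99, 8.01 and 7.98 in control and 9.19, 9.29 and 9.03 with plus2, and the stress-response gene GADD45A read 9.94, 9.87 and 9.91 and then 10.99, 10.91 and 10.99. In the direct test, 14 members were lower and 6 higher with plus2 than with the archetype, and the median was 0.283 with the archetype against control and 0.119 with plus2. TGF-beta and BMP genes gave 10 rises and 8 falls of 38, with 5 falls without control replicate 1. The type I receptor gene TGFBR1 read 11.30, 11.30 and 11.14 and then 10.52, 10.53 and 10.50, opposite in direction to its ligand TGFB2. ID1, a target of BMP signalling, fell by 0.87 ± 0.10 and the ligand gene BMP4 rose by 0.59 ± 0.08. Set against the archetype, 18 of the 38 were higher with plus2 and 4 lower, and against minus2 17 and 3.

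Genes of the matrix and its enzymes changed in both directions. Of 31 collagens and matrix proteins, 5 rose (8 without plus2 replicate 2) and 4 fell, with COL12A1, a collagen bound to fibril surfaces, at 9.02, 8.91 and 8.93 in control and 10.08, 10.01 and 9.85 with plus2. LOX read 10.61, 10.71 and 10.76 and then 9.44, 9.38 and 9.31. Of 26 proteases of invasion and their inhibitors, 11 (42.3%) fell and 7 (26.9%) rose, among them the membrane metalloprotease gene MMP14 (-0.61 ± 0.05), PLAUR (-0.67 ± 0.07) and the sheddase gene ADAM19 (-0.79 ± 0.06). Of 31 epithelial junction genes and keratins, 10 rose and 6 fell. CLDN1, a tight junction claudin, read 6.01, 6.03 and 5.86 and then 8.23, 7.77 and 8.03, while PERP, a desmosomal protein, read 7.84, 7.77 and 7.79 and then 6.55, 6.49 and 6.67. CDH1, which encodes E-cadherin, was near the signal threshold in control, at 4.78, 5.00 and 4.97, and read 6.10, 5.92 and 6.15 with plus2. Among 14 factors and markers of the epithelial-mesenchymal transition, 7 fell, including the repressor gene ZEB1 (-0.57 ± 0.04), and 4 rose, including the cadherin genes CDH2 (0.53 ± 0.06) and CDH11 (0.35 ± 0.07).

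Among inflammatory mediators rises outnumbered falls. Of 29 chemokines and inflammatory cytokines, 12 (41.4%) rose and 5 (17.2%) fell, with a median of 0.196, and 17 were higher and 2 lower with plus2 than with minus2. The array medians of the list were 0.187, 0.069 and 0.288 with plus2, and without replicate 3 there were 10 rises and 6 falls, and 3 falls without replicate 2. IL6 read 7.15, 7.28 and 7.21 in control and 7.97, 7.73 and 7.68 with plus2, and CXCL2 rose by 0.57 ± 0.10. CCL2 rose by 0.84 ± 0.15 from control values between 4.46 and 4.90, at the signal threshold. CSF3, the granulocyte colony-stimulating factor, read 6.85, 6.69 and 7.27 and then 5.76, 5.68 and 5.87. Of 30 NF-kB subunits and feedback genes, 7 rose and 4 fell. The inhibitor gene TNFAIP3 read 8.25, 8.22 and 8.02 and then 9.24, 9.02 and 8.90, while the ubiquitin ligase gene TRAF6 fell by 0.61 ± 0.09.

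Of 34 interferon response genes, 14 (41.2%) fell and 5 (14.7%) rose (3 without control replicate 3), none by 1.5-fold or more. OAS2, a sensor of double-stranded RNA, read 7.96, 8.05 and 8.02 in control and 7.47, 7.33 and 7.47 with plus2. IFI35 read 7.67, 7.49 and 7.69 and then 7.10, 7.05 and 7.06, and the helicase gene DDX60 rose by 0.43 ± 0.05. The median of the interferon list was -0.094 with plus2, -0.127 with the archetype and -0.118 with minus2 against control. Antigen presentation genes gave 9 falls and 1 rise of 25. The peptide transporter gene TAP2 read 9.28, 9.14 and 9.22 and then 8.84, 8.69 and 8.68, and HLA-E read 13.33, 13.35 and 13.31 and then 12.95, 13.06 and 13.11. Neither gene's groups overlapped, although the array medians of the list, -0.141, -0.135 and -0.029, came close to control in replicate 3. TAP2 and HLA-E are among genes with several transcript clusters on this array.

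**Figure D4:**
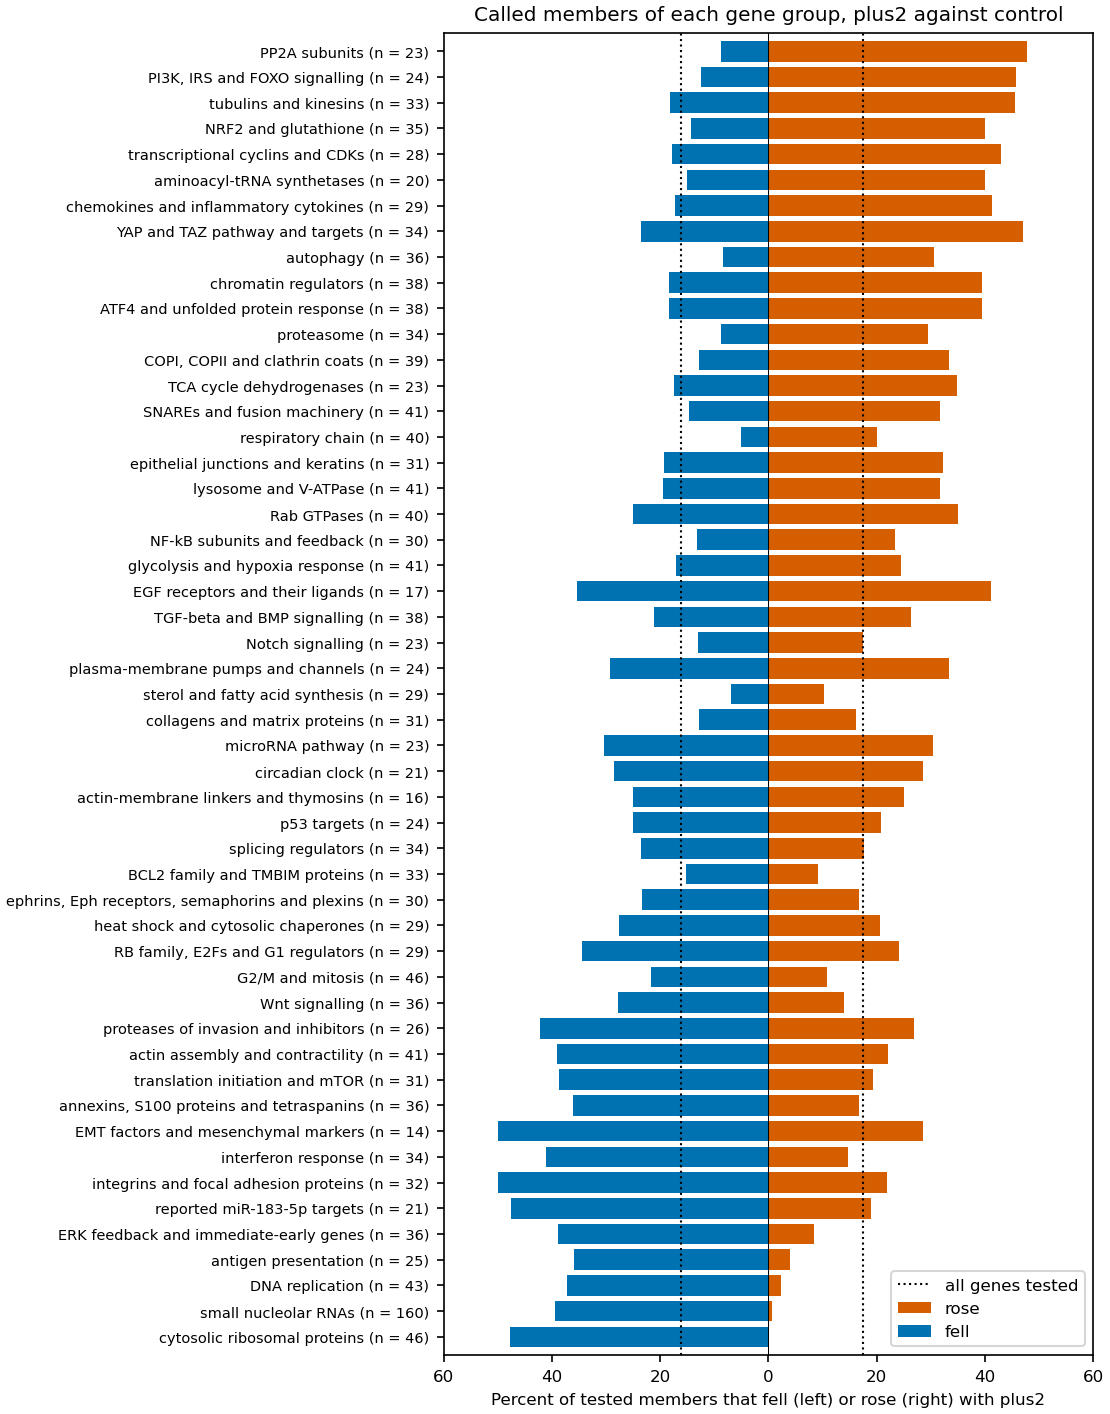
Each bar gives the percent of a group's tested members that fell (left) or rose (right) with plus2 against control, and the dotted lines mark the percent over all tested genes. Cytosolic ribosomal proteins, with 47.8% falling and 0.0% rising, and small nucleolar RNAs, with 39.4% falling, lie at the bottom, and PP2A subunits, with 47.8% rising, at the top.

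Among DNA replication genes nearly all calls were falls, whereas genes of cycle entry were mixed. Of 43 replication genes, 16 (37.2%) fell and 1 (2.33%) rose, and 25 were lower and 2 higher than with the archetype, and 22 lower and 3 higher than with minus2. POLA1, the catalytic subunit that primes new strands, read 10.80, 10.81 and 10.78 in control and 10.44, 10.32 and 10.07 with plus2, and the helicase subunit gene MCM6 read 10.05, 10.10 and 9.95 and then 9.75, 9.72 and 9.40. In both genes replicate 3 was the lowest array, as it was for the list, whose array medians were -0.099, -0.097 and -0.262. Without replicate 3 the list's median moved from -0.175 to -0.093, with 15 falls and 3 rises. PCLAF, a partner of the replication clamp, fell by 1.03 ± 0.11.

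Among 29 G1 regulators, 10 fell and 7 rose. CDK6, a kinase that starts the cycle by phosphorylating RB1, read 10.40, 10.44 and 10.38 in control and 9.18, 9.11 and 9.02 with plus2. CDKN1B, the inhibitor that SKP2 targets as a protein, rose by 0.54 ± 0.09, and the cyclin gene CCNE1 read 8.87, 8.77 and 8.90 and then 9.49, 9.46 and 9.14. G2/M and mitosis genes gave 10 falls and 5 rises of 46, and the rises ranged from 1 without control replicate 3 to 8 without plus2 replicate 3. The mitotic kinase gene PLK1 read 12.63, 12.46 and 12.51 and then 11.86, 11.88 and 11.64, and AURKB, the kinase of the chromosomal passenger complex, fell by 0.50 ± 0.05. In the direct test 18 of these genes were higher and 5 lower with plus2 than with the archetype, and the array medians with plus2 were -0.037, 0.019 and -0.187. Of 28 transcriptional cyclins, kinases and their partners, 12 rose (7 without control replicate 3 or plus2 replicate 1) and 5 fell, and CDK19, a mediator kinase, rose by 0.70 ± 0.06 while CCNK and the elongation factor gene AFF1 fell.

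All called genes for cytosolic ribosomal proteins fell, each by a small amount. Only 46 of 73 listed genes had a transcript cluster with a single symbol. Of these 46 tested cytosolic ribosomal protein genes, 22 (47.8%) fell and 0 rose, with a median of -0.126. The count was 11 falls when the 6 arrays were fitted alone, 14 without control replicate 1 and 24 without plus2 replicate 3. RPL10A read 12.76, 12.71 and 12.67 in control and 12.28, 12.41 and 12.41 with plus2, and RPL12 read 14.37, 14.31 and 14.40 and then 14.08, 14.03 and 14.19. In direct tests, 32 of 46 were lower and 0 higher with plus2 than with the archetype, and 33 lower and 0 higher than with minus2. The list's median against control was 0.026 with the archetype and 0.048 with minus2. Ribosomal protein genes have many near-identical processed copies, which these signals may not separate. Of 31 translation initiation and mTOR genes, 12 fell and 6 rose, and 19 were lower and 3 higher with plus2 than with minus2. EIF4EBP2, a brake on cap-dependent translation, read 12.67, 12.70 and 12.68 and then 11.75, 11.85 and 11.60, and MTOR fell by 0.37 ± 0.06.

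Small nucleolar RNAs, which guide the chemical modification of ribosomal RNA and mostly come from introns of host genes, were counted as a class after their values had been seen. Of 160 tested, 63 (39.4%) fell, 1 (0.625%) rose, and the class median was -0.247, with 141 members below 0. Without plus2 replicate 3, 80 fell and 0 rose, with a median of -0.320, beside 15.9% falling and 16.9% rising over all genes in that fit. SNORA24 read 15.28, 15.32 and 15.20 in control and 14.38, 14.19 and 14.53 with plus2, the largest fall of the class at -0.90 ± 0.08 (adjusted p = 6.84e-06). SNORD104 read 9.23, 8.90 and 9.28 and then 8.30, 8.34 and 8.35, and SNORD75 read 8.96, 9.27 and 8.86 and then 8.28, 8.18 and 8.07. The plus2 and control arrays of these 3 did not overlap. The single rise was that of SNORA11C, by 0.21 ± 0.07.

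Per array, the class median was -0.316, -0.351 and -0.131 in plus2 replicates 1 to 3, between -0.013 and 0.009 in control, between -0.091 and -0.043 with the archetype and between -0.092 and -0.035 with minus2. All 3 plus2 arrays thus lay below the other 9, and replicate 3 lay nearest to them. Against control the archetype lowered 6 and raised 2 of the 160, beside 10.3% falling and 14.3% rising over all genes, and minus2 lowered 7 and raised 0, beside 11.9% and 17.5%. In direct tests 39 were lower and 2 higher with plus2 than with the archetype, and 44 lower and 4 higher than with minus2. Several of these RNAs exist in similar copies, which the array may not separate.

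**Figure D5:**
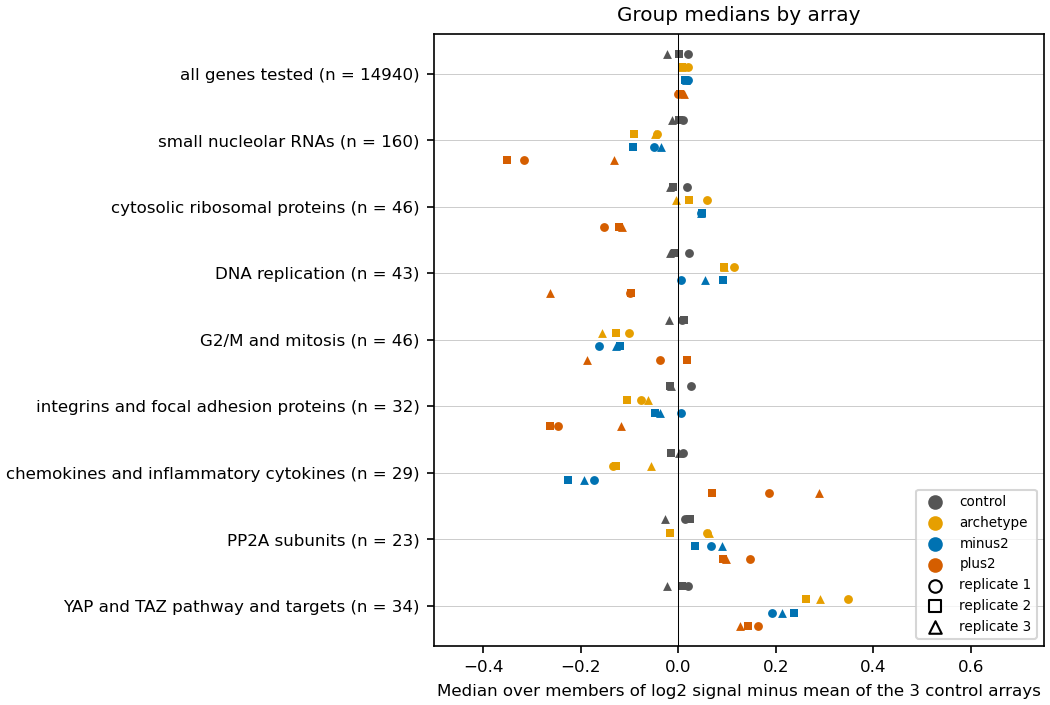
Each point is the median, over a group's tested members, of the log2 signal of 1 array minus the mean of the 3 control arrays, with colour for the treatment and shape for the replicate. For small nucleolar RNAs the plus2 arrays lie at -0.316, -0.351 and -0.131, and for DNA replication replicate 3 lies lowest at -0.262.

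Signals at microRNA genes, which on such arrays can come from the primary transcript, were also counted after their values had been seen. Of 478 tested, 27 (5.65%) fell and 9 (1.88%) rose. Without control replicate 2 there were 14 falls and 16 rises, without plus2 replicate 2 14 rises, and without plus2 replicate 3 17 rises. MIR222 read 10.14, 10.00 and 9.73 in control and 8.76, 8.87 and 8.99 with plus2, and its neighbour on the X chromosome, MIR221, read 10.51, 10.39 and 10.44 and then 9.88, 9.52 and 9.78. MIR29A read 9.79, 9.69 and 9.38 and then 8.57, 8.34 and 8.79. MIR222 and MIR221 were lower than with either other mimic, MIR222 by 0.73 ± 0.11 and 0.46 ± 0.11. MIR29A was lower than with the archetype by 0.92 ± 0.17, but the difference of -0.45 from minus2 did not pass (adjusted p = 0.0512). In the protein machinery of microRNAs, 7 of 23 genes rose and 7 fell. The decapping factor gene EDC3 fell by 0.62 ± 0.05, PRKRA, a partner of Dicer, by 0.47 ± 0.04, and the deadenylase genes CNOT7 and CNOT8 rose by 0.57 and 0.54.

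Of 23 subunits and regulators of the phosphatase PP2A, 11 (47.8%) rose and 2 (8.70%) fell. PPP2R5B, a regulatory subunit, rose by 0.71 ± 0.06, though a dimmer cluster of the same gene changed by 0.11 (adjusted p = 0.273), and the methylesterase gene PPME1 rose by 0.66 ± 0.08. The number of rises was 6 without control replicate 3 and 7 in the fit of the 6 arrays alone. Of 24 genes of PI3K, IRS and FOXO signalling, 11 rose (7 without control replicate 2 or 3) and 3 fell, among the falls IRS1 (-0.56 ± 0.09) and the IGF-binding protein gene IGFBP4 (-0.75 ± 0.05). Among genes that earlier work names as targets of the reference miR-183-5p, 10 of 21 fell while 4 rose, and 12 were higher and 1 lower with plus2 than with the archetype. Their median against control was -0.160 with plus2, -0.498 with the archetype and -0.199 with minus2.

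Stress and metabolic genes gave further differences from the other mimics. Of 29 heat shock and chaperone genes, 8 fell and 6 rose with plus2, and 17 were lower and 5 higher than with the archetype, and 22 lower and 3 higher than with minus2. HSF1, the transcription factor of the heat shock response, read 7.75, 7.61 and 7.57 in control and 6.99, 6.98 and 7.06 with plus2, with no overlap, and was lower by 0.73 and 0.85 in the direct tests. Of 41 genes of glycolysis and hypoxia, 10 rose and 7 fell against control, and 25 were higher and 1 lower than with the archetype. Compared with minus2, 9 were higher and 13 lower. The median of this list against control was -0.001 with plus2, -0.188 with the archetype and -0.031 with minus2. The oxygen sensor gene EGLN3 rose by 0.89 ± 0.08 and the histone demethylase gene KDM3A by 0.60 ± 0.04. Among 38 genes of the ATF4 and unfolded protein responses, 15 rose and 7 fell, with VLDLR, a lipoprotein receptor, at 8.64, 8.38 and 8.62 and then 9.48, 9.19 and 9.45, and EDEM1, which sends misfolded glycoproteins to degradation, at -1.04 ± 0.06.

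NRF2 and glutathione genes gave 14 rises and 5 falls (8 without plus2 replicate 3) of 35, with a median change of -0.006. The rises included NFE2L2 (0.54 ± 0.04), which encodes the NRF2 factor, and GCLM (0.48 ± 0.04), a subunit of the first enzyme of glutathione synthesis. In the citrate cycle list 8 of 23 rose (5 without control replicate 3) and 4 fell. ACO1, an aconitase that doubles as an iron-sensing RNA-binding protein, read 12.02, 12.02 and 11.98 in control and 11.25, 11.18 and 11.30 with plus2. IDH1, the cytosolic isocitrate dehydrogenase, read 8.48, 8.30 and 8.32 and then 8.90, 8.92 and 9.28, and stood above the archetype by 0.92 and minus2 by 0.95. Of 36 autophagy genes, 11 rose (7 without control replicate 2 or 3) and 3 fell, with the phosphoinositide-binding gene WIPI1 at 1.11 ± 0.12 against EI24 at -2.04 ± 0.06. Of 41 lysosomal and V-ATPase genes 13 rose and 8 fell, of 34 proteasome genes 10 rose and 3 fell, and of 40 respiratory chain genes 8 rose (5 without control replicate 1 or 3) and 2 fell. Without plus2 replicate 3, 6 respiratory chain genes rose and 4 fell, and 10 lysosomal and V-ATPase genes rose and 10 fell, the median of the latter list moving from 0.034 to -0.017.

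Annexins, S100 proteins and tetraspanins gave 13 falls and 6 rises of 36. CD151, a tetraspanin that binds laminin-receptor integrins, read 13.17, 13.02 and 13.04 in control and 11.95, 11.91 and 12.07 with plus2, and ANXA11 fell by 0.94 ± 0.05. Of 24 pumps and channels of the plasma membrane, 8 rose and 7 fell, and ORAI1, the pore of store-operated calcium entry, fell from 7.94 ± 0.05 (SD, n = 3) to 7.21 ± 0.08. Guidance molecules gave 5 rises and 7 falls of 30, with SEMA3C, a secreted semaphorin, at 9.36, 9.40 and 9.35 and then 10.77, 10.67 and 10.59, and NRP1, a co-receptor for semaphorins, at -0.58 ± 0.05. Of 36 Wnt genes 10 fell and 5 rose (3 without control replicate 2, control replicate 3 or plus2 replicate 1), and the receptor gene FZD6 fell by 0.77 ± 0.07 and the transducer gene DVL2 by 0.76 ± 0.05 while DKK1 rose. Splicing regulators gave 8 falls and 6 rises of 34, and the muscleblind pair split, with MBNL1 at -0.63 ± 0.06 and MBNL2 at 0.74 ± 0.10. Of 33 tubulins and kinesins 15 rose and 6 fell, and of 38 chromatin regulators 15 rose (8 without control replicate 3) and 7 fell. Circadian clock genes gave 6 rises and 6 falls (3 without plus2 replicate 1) of 21, led by CRY1, a repressor of the clock, at 8.85, 8.75 and 8.86 in control and 10.56, 10.30 and 10.54 with plus2. The remaining lists gave 8 rises and 3 falls of 20 aminoacyl-tRNA synthetases, 5 and 6 of 24 p53 targets, 4 and 3 of 23 Notch genes (4 and 5 without plus2 replicate 3), and 3 and 5 of 33 BCL2 and TMBIM family genes.

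Among protein-coding genes with a mean log2 signal of at least 6, the 12 in which plus2 replicate 3 departed furthest from its group were not called between plus2 and control. Such a choice favours genes with a wide spread within plus2, so the missing calls partly follow from it. PDK4, which blocks pyruvate oxidation during fasting, read 7.81, 7.13 and 8.78 with plus2 against 6.75 to 7.25 in control, and the cytokine gene IL1B read 10.29, 9.75 and 11.16 against 9.42 to 9.84. The desaturase gene SCD read 14.43, 14.05 and 15.13, and PLIN2, a coat protein of lipid droplets, 9.51, 8.84 and 10.09. CST4 and IFI6 completed the 6 genes furthest above. In all of these 6 replicate 3 was the highest plus2 array, which largely follows from how they were chosen. Furthest below were PCDHGA10, the S-phase cyclin gene CCNE2 (9.17, 9.22 and 8.44 against 8.58 to 8.71 in control), the replication gene MCM10 (10.07, 9.99 and 9.31 against 10.07 to 10.13), RRS1, NCOA5 and TAS2R10. CCNE2 was not called with all arrays (0.29, adjusted p = 0.221) and rose without replicate 3 (0.54, adjusted p = 0.000671).

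Replicate 3 deviated from the mean of the other 2 plus2 arrays by more than 0.5 log2 units in 215 of 14940 genes, 151 above and 64 below. By the same measure replicates 1 and 2 deviated in 184 and 164 genes, and arrays of the other groups in 59 to 126. Sterol and fatty acid synthesis genes were higher in replicate 3 by a median of 0.196, chemokines by 0.136 and small nucleolar RNAs by 0.192, while DNA replication genes were lower by 0.223 and G2/M genes by 0.159. Of 29 sterol and fatty acid genes, 3 rose and 2 fell with all arrays, and 1 rose and 4 fell without replicate 3. Without replicate 2 the rises were 11, and with the replicate number as a block 7. HMGCS1, an early enzyme of cholesterol synthesis, rose in both fits, by 0.78 with all arrays and by 0.71 without replicate 3.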

How the data were processed

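RNA was measured on 12 Affymetrix arrays of MDA-MB-231 cells. The authors deposited 1 log2 signal per feature and array. Per the submitters' processing notes, RMA and version 1.4.1 of Affymetrix Expression Console were used, with no settings given. No source writes out the log2 scale, which was taken from the range of the values (1.79 to 19.9). The genome build of the array annotation is not given in the sources used here. Of 67528 transcript clusters, 23781 carried a single gene symbol, and clusters with several or none were not named. Where a gene had several clusters, as 528 genes did, the one with the highest mean was used.

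A linear model with 1 mean per group was fitted to the 12 arrays (lmFit and eBayes of limma 3.58.1, R 4.3.3, 8 residual degrees of freedom), with Benjamini-Hochberg adjustment within each contrast over 14940 genes, and the fit was tested on simulated data. The alternatives were array weights, an intensity trend, centring, quantile normalisation, other signal filters, another cluster per gene, the 6 arrays alone, a replicate block and leaving out each array. The number of arrays limits the precision. No array was left out of the fit unless stated.

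Named genes were, by rule, the 20 largest called rises and falls with no overlap between the groups, the 10 genes most above and the 10 most below all other groups, up to 6 called members per list with a list's defining members, and, at a mean log2 signal of at least 6, the 6 genes furthest above and the 6 furthest below in plus2 replicate 3. Protein-coding symbols were used except where a class is said to have been counted after its values were seen. The 56 gene lists and the members were chosen with earlier results of these data known, so they are described by counts with no test of a list. Same-numbered control and plus2 arrays had correlated deviations of 0.179, 0.222 and 0.0231, and no source says that a number marks a shared culture, so the numbers were not treated as pairs. Sequences are from the labels and from RefSeq (GRCh38.p14). Results for some gene groups are not reported here.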

Additional observations from a re-analysis of the deposited data

How the results depend on the processing

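With each array left out in turn, 4312 to 4897 genes were called between plus2 and control, 3532 to 4168 against the archetype and 4940 to 5524 against minus2. The other alternatives gave 3873 to 5297, 3197 to 4564 and 4973 to 6013. None of these counts moved by over 1.5 times. The 335 named genes followed here leave out those chosen by plus2 replicate 3, the small nucleolar RNAs and the microRNA genes. None of the 335 turned its direction under the alternatives run. Per alternative, 0 to 11 of the named genes lost their call, most often ERBB3, ATG14 and CYP51A1, and with the signal filter at the median of all genes 324 of the 335 were tested. The calls of ITGB1, TMBIM6 and PPP2R5B were lost where another cluster stood for the gene, which for TMBIM6 lay below the signal threshold. In the fit of the 6 arrays alone, rises moved from 15 to 8 in chromatin regulators, from 12 to 6 in transcriptional cyclins and kinases, from 10 to 6 in the proteasome, from 9 to 5 in the actin machinery and from 7 to 4 in both the microRNA pathway and the invasion proteases. There, falls of splicing regulators moved from 8 to 5. With the replicate number as a block, 5286 genes were called against control, 4564 against the archetype and 6013 against minus2, and none of the 335 lost its call. All 3 plus2 arrays correlated best with the control array of their own number, a hint from the data and not from the design. For plus2 replicate 3 this rests on 0.0231 with control replicate 3 beside 0.021 with control replicate 1, which are nearly equal and close to no correlation. Own-number correlations were also the highest with the archetype arrays (0.0864, 0.12 and 0.133) and the minus2 arrays (0.0968, 0.169 and 0.0612). Whether a number marks a shared batch was not tested. Centring each array on its median changed the share of calls that rose from 51.9% to 48.1%.

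Signals near the threshold, as for CCL2, CDH1 and ACTBL2 in control, are not shown to be above background. A log2 signal compares a gene between arrays, not genes with each other. Each array was labelled from 100 ng of RNA, so a change in RNA per cell was not measured. With 3 arrays a group, a call missed in one contrast does not show that a gene did not change.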
